A study of Mus musculus with 6 samples.

Results

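The NOTCH genes described here are the receptors Notch1, Notch2 and Notch3, the ligands Jag1, Jag2 and Dll1, the receptor-modifying glycosyltransferase Lfng, the DNA-binding effector Rbpj, and the targets Hes1 and Hey1. They were taken by gene symbol, which gave 13 probes for the 10 genes among the 25697 probes of the array table. The transcripts were measured on 6 single-colour Illumina bead arrays in samples labelled as mouse hepatic progenitor cells, the bipotent epithelial precursors of hepatocytes and bile duct cells. There were 3 samples of genotype Met fl/fl and 3 of genotype Egfr fl/fl, all from control livers on a C57BL/6 background. The floxed alleles, of the hepatocyte growth factor receptor gene Met and of the epidermal growth factor receptor gene Egfr, are flanked by recombination sites, and the labels name no recombinase, treatment, age or time for either group. Nothing states that replicates were separate animals or cultures, so p-values reflect only the spread among these arrays, which may be technical.

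NOTCH receptors are single-pass proteins of the cell surface that are activated by ligands of the Jagged and Delta families on a neighbouring cell. Binding exposes the receptor to an ADAM protease and then to gamma-secretase, which frees the intracellular domain to enter the nucleus, join RBPJ and switch on transcriptional repressors of the HES and HEY families. In the liver the pathway is known for its part in bile duct formation, with Jag1 and Notch2 at its centre, and loss of JAG1 or NOTCH2 in people causes Alagille syndrome, in which bile ducts are too few.

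The RefSeq promoter table (GRCm38.p6, a 300-base window around each start site) held 10 promoters for 8 of the 10 genes. It held none for the targets Hes1 and Hey1. Those of Notch2 and Notch1, which were higher in Met fl/fl, of Jag1, which was lower, and of Lfng, which was detected in Egfr fl/fl only, are shown on their own strands, since the results turn on these genes. Capitals mark TGGGAA, the core of the sites that RBPJ binds, or TTCCCA where it lies on the opposite strand.
Notch2 promoter, chr3:98013288-98013587, plus strand: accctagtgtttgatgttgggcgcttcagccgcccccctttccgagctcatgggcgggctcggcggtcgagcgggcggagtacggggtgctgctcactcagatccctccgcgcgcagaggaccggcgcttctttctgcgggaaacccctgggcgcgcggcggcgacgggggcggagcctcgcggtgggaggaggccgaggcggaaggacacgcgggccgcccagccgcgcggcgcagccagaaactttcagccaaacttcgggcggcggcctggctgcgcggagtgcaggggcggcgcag
Notch1 promoter, chr2:26503773-26504072, minus strand: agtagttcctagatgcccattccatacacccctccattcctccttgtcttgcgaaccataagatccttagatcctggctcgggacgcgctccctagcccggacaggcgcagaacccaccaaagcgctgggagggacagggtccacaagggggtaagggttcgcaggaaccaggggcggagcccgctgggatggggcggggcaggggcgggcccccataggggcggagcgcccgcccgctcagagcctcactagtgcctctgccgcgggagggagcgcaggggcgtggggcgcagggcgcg
Jag1 promoter, chr2:137116471-137116770, minus strand: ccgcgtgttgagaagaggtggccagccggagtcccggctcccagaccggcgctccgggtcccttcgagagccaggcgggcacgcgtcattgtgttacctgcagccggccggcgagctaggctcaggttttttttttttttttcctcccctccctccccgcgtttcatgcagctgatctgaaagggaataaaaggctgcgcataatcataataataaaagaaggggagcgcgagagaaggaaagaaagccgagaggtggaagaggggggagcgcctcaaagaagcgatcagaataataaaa
Lfng promoter, chr5:140607091-140607390, plus strand: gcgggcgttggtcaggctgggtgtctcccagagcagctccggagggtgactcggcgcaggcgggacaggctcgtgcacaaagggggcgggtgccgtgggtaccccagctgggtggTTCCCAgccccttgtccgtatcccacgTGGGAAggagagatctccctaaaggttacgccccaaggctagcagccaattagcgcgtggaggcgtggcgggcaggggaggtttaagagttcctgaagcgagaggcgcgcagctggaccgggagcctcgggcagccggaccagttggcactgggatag
The Lfng window held the letters at 135 bases before the start site (TTCCCA) and at 108 bases before it (TGGGAA), and those of Notch2, Notch1 and Jag1 held none. Of the 10 member promoters 3 (30.0%) held TGGGAA on either strand, those of Lfng and both of Rbpj, against 25.6% of 32851 promoters of the same length. The Rbpj windows overlap and share a site, which is counted in both. By gene, 2 of 8 members held the letters, against 7651 of 27025 genes. The share of these 8 members was close to that of promoters at large, and the targets Hes1 and Hey1 were not scanned. Guanine and cytosine made up 73.0% of the Notch2 window, 68.3% of that of Notch1, 66.7% of that of Lfng and 55.7% of that of Jag1, while the median promoter had 52.7%.

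Signals are given in the deposited intensity units, in the order of replicates 1, 2 and 3 where a group has 3 values. They had a background subtracted and can fall below 0. A probe is called detected on an array where its detection p-value, set against the negative controls of that array, was under 0.05. The mean signal over all probes ran from 275.2 to 397.6 units on the Met fl/fl arrays and from 240.8 to 321.4 units on the Egfr fl/fl arrays, and 43.8% to 45.3% of probes were detected on each array. Differences are on the log2 scale after normalization between arrays, as Met fl/fl minus Egfr fl/fl, and were tested with limma on the 11578 probes detected on at least 3 arrays. Of these probes 4613 (39.8%) passed. A gene is represented by its brightest tested probe, and the threshold is a Benjamini-Hochberg adjusted p of 0.05 over all tested probes. The 2 genotypes differed widely: 3541 of 8549 tested genes (41.4%) passed, 22.8% as higher in Met fl/fl and 18.6% as higher in Egfr fl/fl, and every count of NOTCH genes is to be read against these shares. Arrays correlated at 0.985 to 0.992 within Met fl/fl, at 0.967 to 0.991 within Egfr fl/fl and at 0.891 to 0.921 between the groups (Pearson r across probes). No label names a slide or batch, so genotype cannot be told apart from a slide, an animal or a culture if each group came from 1.

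Setting Met fl/fl against Egfr fl/fl shows how far NOTCH transcripts differed with the floxed allele the control livers carried. The receptors Notch2 and Notch1 and the target Hey1 were higher in Met fl/fl, by 5.28-fold, 1.95-fold and 3.24-fold. The ligand Jag1 was lower in Met fl/fl, by 2.17-fold. Hes1 and Jag2 did not pass the threshold. In bulk RNA like this, fewer cells of a type and less RNA per cell cannot be told apart. Of the 6 members tested, then, 4 passed, 3 as higher and 1 as lower in Met fl/fl, a share of 66.7% beside 41.4% of all genes. The members were few and chosen with earlier results of these data known, so the higher share is no evidence about the pathway. The other 4 members, Notch3, Dll1, Lfng and Rbpj, were too dim on too many arrays to be tested. Every tested member was detected on at least 2 arrays of each group, so none entered the test through 1 group alone. The plot of deposited signals shows all 13 probes on all 6 arrays.

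**Figure D1:**
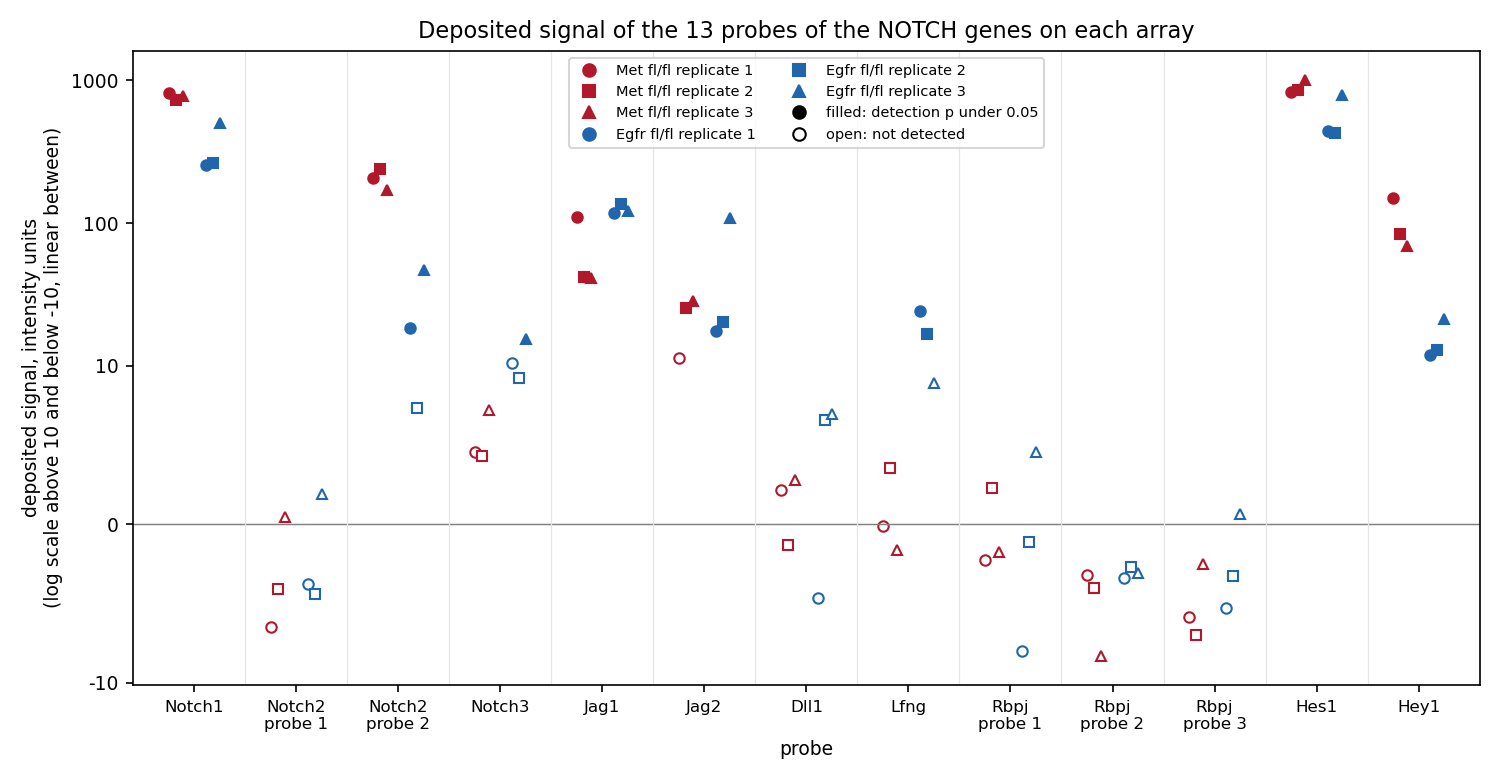
Deposited signal in intensity units of each of the 13 probes on each array, with Met fl/fl arrays in red at the left of each column and Egfr fl/fl arrays in blue at the right. Filled points have a detection p under 0.05, and all 18 points of the 3 Rbpj probes are open.

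Notch2, a receptor of developing bile duct cells, had a signal of 207, 240 and 170 units in Met fl/fl by its probe ILMN_2980247, against 18.5, 7.31 and 47.2 units in Egfr fl/fl. The groups did not overlap, and the probe was detected on all Met fl/fl arrays and on 2 of 3 Egfr fl/fl arrays, replicate 2 being the exception. After normalization it averaged 7.66 ± 0.33 in Met fl/fl cells and 5.26 ± 0.50 in Egfr fl/fl cells (log2 intensity, SD, n = 3 each), a difference of 2.40 ± 0.28 (SE; 95% interval 1.78 to 3.02; limma adjusted p = 1.12e-04). With the undetected Egfr fl/fl array raised to its lowest detected signal the fold was at least 5.12. Only 2.22% of tested genes had a larger difference in either direction. The size depended on how dim signals were handled. The difference was 3.01 with no background model and values below 16 units raised to 16, in place of adding 16. It was 1.70 with an offset of 50 units in place of 16. The other Notch2 probe, ILMN_2678002, was detected on no array, with signals from -6.48 to 0.47 units in Met fl/fl and from -4.43 to 1.89 units in Egfr fl/fl. The statement about Notch2 therefore rests on 1 of its 2 probes.

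Notch1, the receptor best known from T cell and vessel development, was bright on every array. Its signal was 823, 734 and 778 units in Met fl/fl, against 254, 264 and 500 units in Egfr fl/fl. All Met fl/fl arrays lay above all Egfr fl/fl arrays, with Egfr fl/fl replicate 3 above the other 2 of its group. The log2 intensity averaged 9.48 ± 0.23 in Met fl/fl cells and 8.52 ± 0.24 in Egfr fl/fl cells (SD, n = 3 each), and the difference of 0.96 ± 0.18 (SE; 95% interval 0.57 to 1.35) passed with a limma adjusted p of 0.00201. In either direction 17.2% of tested genes differed by more.

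Notch3, the receptor of vessel-wall and other mural cells, gave 4.56, 4.31 and 7.21 units in Met fl/fl and 10.5, 9.21 and 15.3 units in Egfr fl/fl. The Egfr fl/fl values were the higher ones with no overlap, but the probe was detected on Egfr fl/fl replicate 3 alone, so no fold is given. Fitted with no filter on dim probes, its difference was -0.16 ± 0.12 (SE, limma adjusted p = 0.477).

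Among the ligands Jag1, the ligand mutated in most cases of Alagille syndrome, ran against the receptors. It had 110, 41.7 and 41.0 units in Met fl/fl, against 117, 137 and 122 units in Egfr fl/fl. The Met fl/fl arrays all lay below the Egfr fl/fl arrays, replicate 1 only narrowly in these unscaled units, where it was also the array with the highest mean signal over all probes. Normalized, Jag1 averaged 6.15 ± 0.38 in Met fl/fl cells and 7.26 ± 0.36 in Egfr fl/fl cells (log2 intensity, SD, n = 3 each). The difference was -1.12 ± 0.26 (SE; 95% interval -1.69 to -0.54; limma adjusted p = 0.00662), and 12.8% of tested genes differed by more in either direction.

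Jag2, a second Jagged ligand, did not pass. Its signal was 11.4, 25.3 and 28.4 units in Met fl/fl, with replicate 1 not detected, against 17.6, 20.4 and 108 units in Egfr fl/fl. The groups overlapped, and Egfr fl/fl replicate 3 stood far above the other 5 arrays. The difference was -0.42 ± 0.37 (SE; 95% interval -1.25 to 0.42; limma adjusted p = 0.409), and without Egfr fl/fl replicate 3 it turned to 0.08. Dll1, a Delta family ligand, was detected on no array, with signals of 2.17, -1.32 and 2.78 units in Met fl/fl and of -4.64, 6.57 and 6.93 units in Egfr fl/fl. Of the 3 ligands, then, Jag1 was the one detected on all 6 arrays.

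Lfng adds N-acetylglucosamine to O-fucose on the NOTCH extracellular domain and so shifts the receptor's preference among ligands. Its signal was -0.13, 3.53 and -1.63 units in Met fl/fl, none of them detected, against 24.3, 16.8 and 8.91 units in Egfr fl/fl, of which replicates 1 and 2 were detected. The Egfr fl/fl arrays were all higher. With 2 arrays detecting it, Lfng fell short of the 3 needed for the test. With the Met fl/fl arrays set at their lowest detected signal, the Egfr fl/fl mean was 1.13-fold higher. That mean keeps the undetected Egfr fl/fl replicate 3 as read, so the value is no firm lower bound. A fit with no filter on dim probes gave -0.51 ± 0.17 (SE, limma adjusted p = 0.0530).

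Rbpj, the protein through which all NOTCH receptors reach DNA, had 3 probes, and none was detected on any array. Across the 3 probes the signals ran from -8.33 to 2.28 units in Met fl/fl and from -8.00 to 4.56 units in Egfr fl/fl. These probes give no level for Rbpj in either genotype, and the differences of the 3 probes with no filter, from -0.03 to 0.03, carry no information about its transcript.

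The targets Hey1 and Hes1 encode basic helix-loop-helix repressors that are standard readouts of NOTCH signalling. Hey1 had 149, 84.5 and 69.5 units in Met fl/fl, against 11.8, 12.9 and 21.1 units in Egfr fl/fl. The groups were far apart, and the Egfr fl/fl values were only just detected, with detection p-values of 0.0414, 0.0376 and 0.0175. Hey1 averaged 6.71 ± 0.20 in Met fl/fl cells and 5.02 ± 0.09 in Egfr fl/fl cells (log2 intensity, SD, n = 3 each), with a difference of 1.70 ± 0.18 (SE; 95% interval 1.29 to 2.10; limma adjusted p = 7.24e-05). It was 2.46 with no background model and 1.07 with an offset of 50 units. A larger difference in either direction was seen in 5.11% of tested genes.

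Hes1 was bright on every array. It read 835, 857 and 1015 units in Met fl/fl, against 439, 428 and 793 units in Egfr fl/fl. In these units the groups did not overlap, but after normalization Met fl/fl replicate 1, at 9.26, lay below Egfr fl/fl replicate 3, at 9.48 (log2 intensity). The mean was 9.69 ± 0.41 in Met fl/fl cells and 9.23 ± 0.21 in Egfr fl/fl cells (SD, n = 3 each), and the difference of 0.46 ± 0.21 (SE; 95% interval -0.0024 to 0.92) did not pass (limma adjusted p = 0.104). It passed without Met fl/fl replicate 1 (0.67, limma adjusted p = 0.0207) and without Egfr fl/fl replicate 3 (0.58, limma adjusted p = 0.0237), the 2 arrays that lay nearest to the opposite group. Whether Hes1 and Hey1 differed from each other in their response was not tested.

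**Figure D2:**
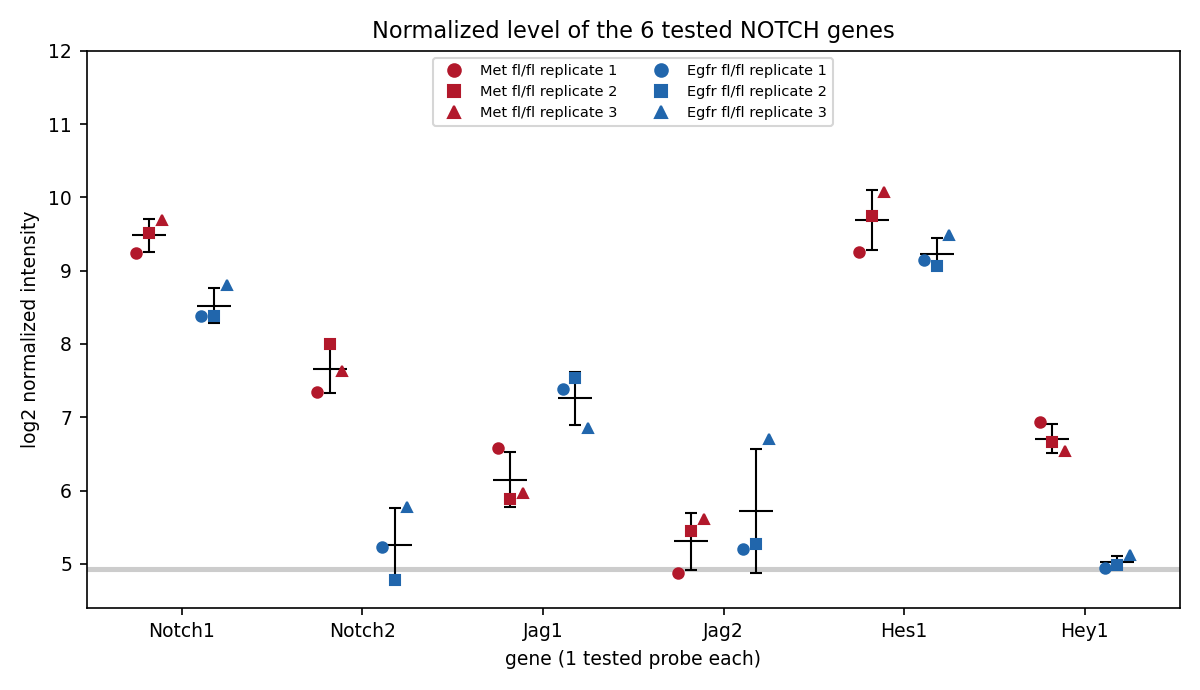
Log2 normalized intensity of the 6 tested NOTCH genes on each array, with Met fl/fl arrays at the left of each pair and Egfr fl/fl arrays at the right, and bars for the mean and SD of 3 arrays. The grey band spans the lowest detected value of the arrays, 4.90 to 4.95. The lowest Egfr fl/fl value of Hey1, 4.95, lies at its edge. Notch2 on Egfr fl/fl replicate 2 (4.78) and Jag2 on Met fl/fl replicate 1 (4.87) lie below it. Groups overlap for Jag2 and Hes1.

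By an exact two-sided permutation test Notch1, Notch2, Jag1 and Hey1 each reached p = 0.1, the lowest value possible with 3 arrays a group, as did any of the 4449 genes (52.0% of those tested) whose normalized values did not overlap between the groups. Egfr fl/fl replicate 3 often lay between its group and Met fl/fl. On the log2 scale it stood 63% of the way from the average of the other 2 Egfr fl/fl arrays to the Met fl/fl mean for Hes1, 46% for Jag1, 38% for Notch1, 29% for Notch2 and 9% for Hey1. Without it the differences were 1.11 for Notch1, 2.62 for Notch2, -1.31 for Jag1 and 1.70 for Hey1, and all 4 passed. In the plot of differences under other settings the 4 called genes keep their sign throughout.

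**Figure D3:**
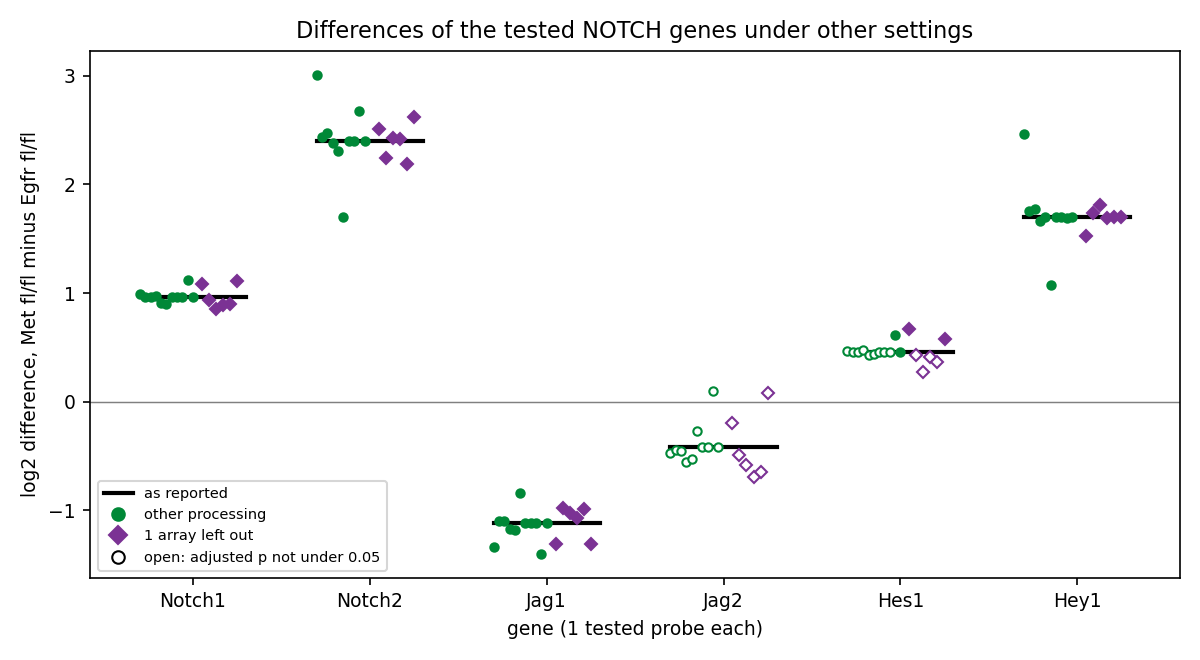
Log2 difference, Met fl/fl minus Egfr fl/fl, of the 6 tested NOTCH genes as reported (black line), under other processing (green circles) and with 1 array left out (purple diamonds). Open symbols did not pass the threshold. Notch1, Notch2, Jag1 and Hey1 keep sign and call in each fit that tested them, whereas Jag2 crosses 0 with array weights (0.10) and without Egfr fl/fl replicate 3 (0.08).

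Beyond the members, 79 further genes of the pathway were listed by role, 70 of which had a probe and 47 of which were tested. Of the 47, 11 were higher in Met fl/fl, 5 were lower and 31 passed in neither direction, a share of 34.0% called beside 41.4% of all genes. Their median difference was 0.08, beside 0.07 over all tested genes. The median was thus close to that of all tested genes and the share called was below theirs.

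Of the further receptors and ligands 2 were tested and both were higher in Met fl/fl, beside 22.8% of all tested genes called higher there. Dlk2, a Delta-like membrane protein without the domain that activates NOTCH, had 357, 410 and 360 units in Met fl/fl and 36.6, 36.7 and 93.9 units in Egfr fl/fl (difference 2.39 ± 0.25 SE, limma adjusted p = 6.10e-05). Notch4, a receptor known from endothelium, had 54.7, 43.5 and 49.9 units in Met fl/fl and 14.3, 17.8 and 14.5 units in Egfr fl/fl (0.92 ± 0.17 SE, limma adjusted p = 0.00223). Like that of Notch2, the size for Notch4 moved with the handling of dim signals, to 1.50 with no background model and 0.53 with an offset of 50 units, and it passed in both. Neither gene overlapped between the groups, and a further Notch4 probe was too dim to test. The ligand-like genes Dll3, Dlk1, Dner, Mfap2 and Mfap5 were detected on no array.

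In the steps between ligand and nucleus most tested genes did not pass, nor did most of all tested genes, of which 41.4% passed. The share called was 25.0% in receptor cleavage, 33.3% in ligand endocytosis and 25.0% among glycosyltransferases. Of 8 tested genes of receptor cleavage 2 were higher and 0 lower in Met fl/fl. These were the gamma-secretase subunit Psenen, with 3110, 2193 and 1914 units in Met fl/fl and 911, 1114 and 1384 units in Egfr fl/fl (0.81 ± 0.12 SE, limma adjusted p = 5.50e-04), and the convertase Furin (0.51 ± 0.13 SE), whose call was lost when any of Met fl/fl replicate 2, Egfr fl/fl replicate 1 or Egfr fl/fl replicate 2 was left out (0.44 to 0.50). The sheddase Adam17 (0.40, limma adjusted p = 0.0815) and the gamma-secretase gene Psen2 (-0.59, limma adjusted p = 0.0544) did not pass. Among 6 tested genes of ligand endocytosis the ubiquitin ligases Neurl1b (1.12 ± 0.26 SE, limma adjusted p = 0.00694) and Mib1 (0.71 ± 0.18 SE) were higher in Met fl/fl. Neurl1b read 432, 253 and 209 units in Met fl/fl, against 72.3, 70.5 and 210 units in Egfr fl/fl, so that Egfr fl/fl replicate 3 lay apart from its group there too. Of 4 tested glycosyltransferases Xxylt1, which extends O-glucose glycans on the receptors, was lower in Met fl/fl (-0.61 ± 0.22 SE, limma adjusted p = 0.0498), a call lost whichever single array was left out. Furin, Mib1 and Xxylt1 are named here for their calls, after their values were seen, as are Tle2, Cdk8, Ccnc, Cir1 and the genes given as not passing.

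Of 9 tested corepressors 4 passed, all as higher in Met fl/fl, a share of 44.4% that lay close to the 41.4% of all genes. Coactivators (5 tested) had 20.0% called and inhibitors and turnover genes (8 tested) 25.0%, both below the share of all genes. TLE proteins are Groucho family corepressors that HES proteins recruit. Tle1 differed by 1.02 ± 0.22 (SE, limma adjusted p = 0.00428) with 0.80 on its other tested probe, Tle4 by 0.97 ± 0.15 (limma adjusted p = 7.43e-04) and Ncor1, a nuclear corepressor that also partners RBPJ, by 0.94 ± 0.24 (limma adjusted p = 0.0120, or 0.0526 without Egfr fl/fl replicate 1). Tle2 passed more narrowly (0.74, limma adjusted p = 0.0450), and its call was lost when any 1 of 4 arrays, replicates 2 and 3 of Met fl/fl and 1 and 2 of Egfr fl/fl, was left out. Its normalized values overlapped between the groups, and it was not detected on Egfr fl/fl replicate 2, at 6.65 units. The 3 TLE genes and Ncor1 were each 1.67-fold to 2.03-fold higher in Met fl/fl, while Tle3 did not pass (-0.07 ± 0.20 SE). The probes of Cir1, a corepressor that binds RBPJ, disagreed, the brighter at 0.02 and the dimmer past the threshold at 0.65 (limma adjusted p = 0.0455). With an offset of 50 units Tle2 was at 0.43. Of 5 tested coactivators the acetyltransferase Kat2b was lower in Met fl/fl (-0.95 ± 0.19 SE, limma adjusted p = 0.00328; -0.53 with an offset of 50 units), with 3.23 to 27.5 units in Met fl/fl, replicate 3 not being detected, and 38.9 to 48.5 units in Egfr fl/fl. Among 8 tested inhibitors and turnover genes the kinase Cdk8, which marks the NOTCH intracellular domain for degradation, was higher (0.79) and its cyclin Ccnc lower (-0.65) in Met fl/fl, so the partners had opposite signs. The Ccnc call (limma adjusted p = 0.0470) was lost without any 1 of the same 4 arrays.

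Of 5 other targets tested, 0 passed as higher and 2 as lower in Met fl/fl, a share of 40.0% that lay close to the 41.4% of all genes. Sox9, the transcription factor of bile duct and progenitor cells, had 146, 110 and 104 units in Met fl/fl and 305, 381 and 569 units in Egfr fl/fl (-1.88 ± 0.17 SE, limma adjusted p = 1.97e-05). Myc, a driver of cell growth, had 53.3, 45.2 and 40.3 units in Met fl/fl and 86.5, 82.0 and 209 units in Egfr fl/fl (-1.23 ± 0.23 SE, limma adjusted p = 0.00198). Both stood lower on every Met fl/fl array, and both genes also answer to many other pathways. Nrarp, a feedback inhibitor that is itself induced by NOTCH, differed by -0.32 ± 0.19 (SE, limma adjusted p = 0.203), which did not pass. The 3 probes of the cyclin gene Ccnd1 disagreed, at 0.05 on the brightest, 0.17 and -0.65 (limma adjusted p = 0.784, 0.325 and 0.0601). Those of Cdkn1a, a cell cycle inhibitor, were at 0.08 on the brightest, -0.14 and -0.18, and none of these 6 probes passed. The HES and HEY family genes Hes5, Hes7, Hey2, Heyl, Hes2 and Hes3 were detected on no array, as were Eogt, Aph1c, Crebbp and Ctbp1.

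**Figure D4:**
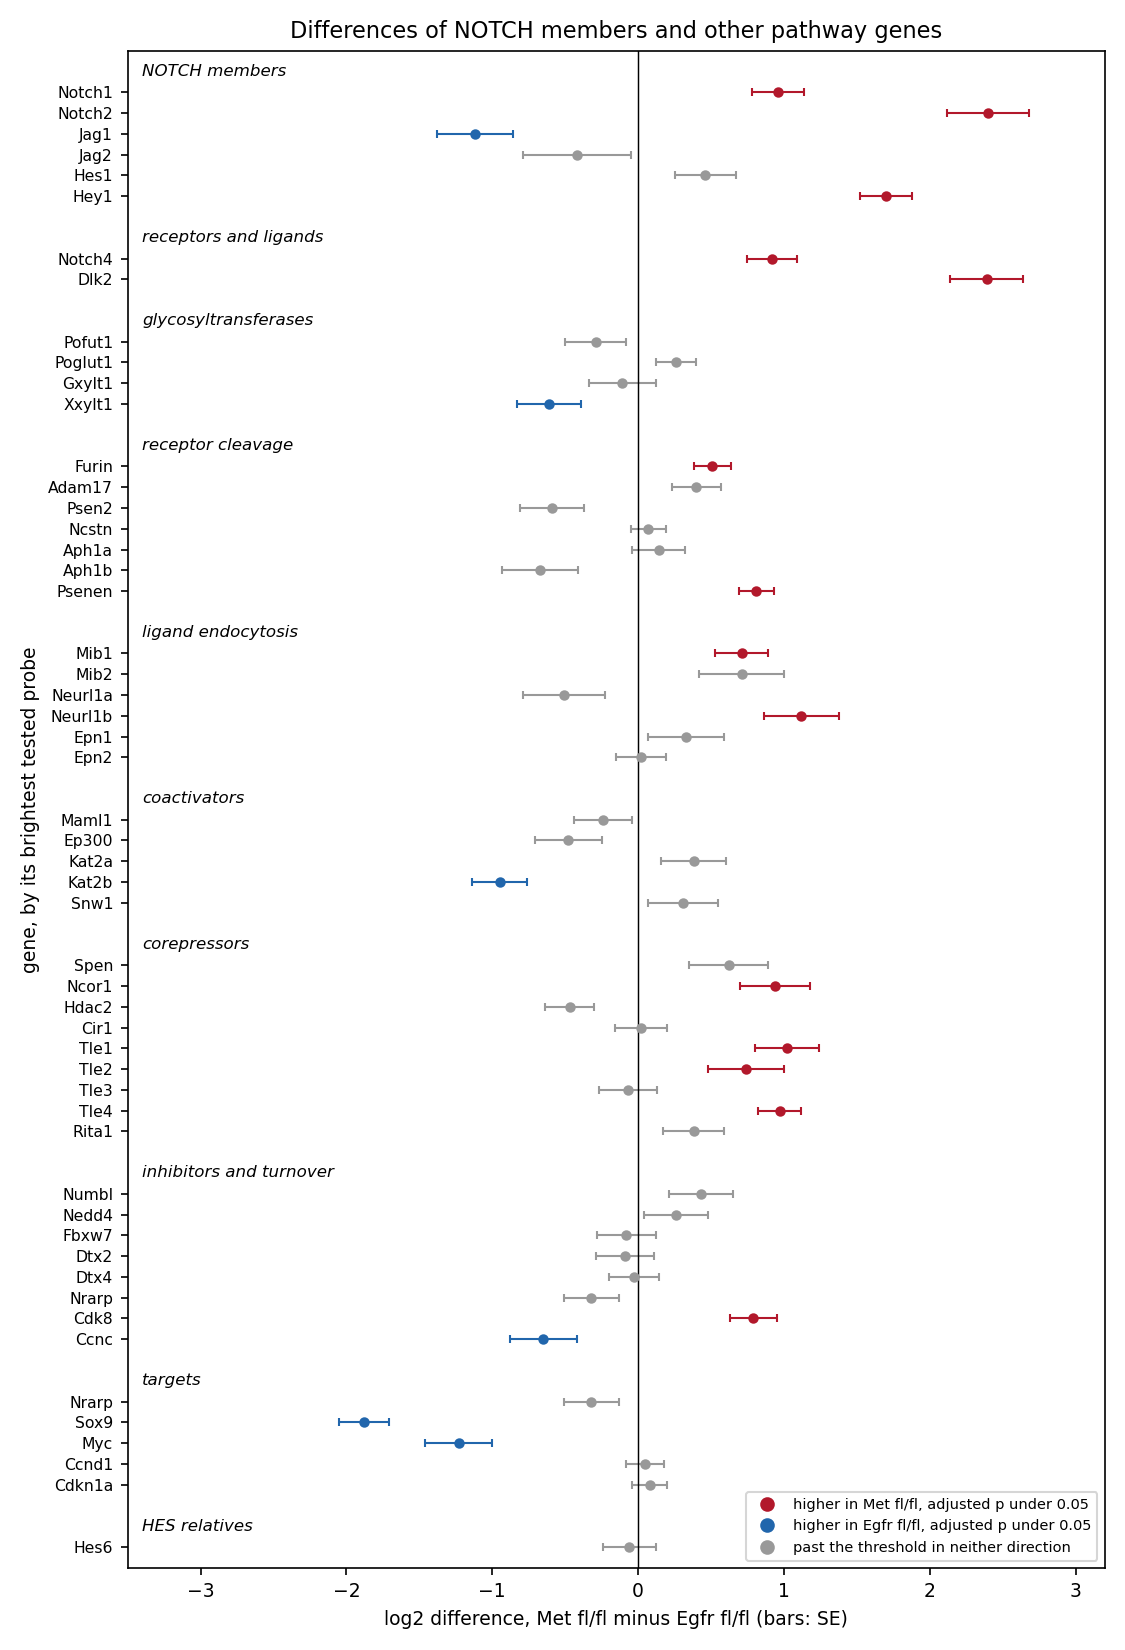
Log2 difference, Met fl/fl minus Egfr fl/fl, with its SE, for the 6 tested NOTCH members and the other tested pathway genes by role, with 1 gene not drawn and Nrarp drawn under both of its roles. Red marks genes higher in Met fl/fl and blue genes higher in Egfr fl/fl at an adjusted p under 0.05, and most other pathway genes are grey.

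The genes most like the 3 called members of largest difference were found by the root mean square difference of log2 values, each gene centred on its mean over the 6 arrays, among 8548 other genes. For Notch2 these were Dlk2 at 0.16, Mvd at 0.18 and Msln at 0.18. For Hey1 they were Kif18b at 0.07, Vegfc at 0.07 and Muc1 at 0.10, and for Jag1 they were Lgals9 at 0.08, Wsb1 at 0.09 and Bmpr1a at 0.10. With 2 genotypes on 6 arrays this is a description of similar size and direction only.

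Markers of liver cell types were read beside the NOTCH genes, since several of these are also expressed in vessels and mural cells. The 4 general epithelial markers were detected on all Met fl/fl arrays and 3 to 4 of them on each Egfr fl/fl array, with a summed normalized level of 11156 to 11484 units in Met fl/fl and 18336 to 23510 units in Egfr fl/fl. That sum was mainly Krt8 and Krt18. All 4 were tested, and 3 passed as lower in Met fl/fl, a share of 75.0% beside 41.4% of all genes. These were Cdh1 (-1.37), Krt8 (-0.82) and Krt18 (-0.49). Cldn7 (0.49, limma adjusted p = 0.0751) did not pass. Of the biliary and progenitor markers 7 of 9 were detected on each Met fl/fl array and 7 to 8 on each Egfr fl/fl array, and their sum was 7676 to 10152 units in Met fl/fl and 10476 to 12469 units in Egfr fl/fl. That sum was mainly Spp1 (-0.46, limma adjusted p = 0.0865) and Krt19 (-0.04, limma adjusted p = 0.888), which did not pass. Of 7 tested markers of this list 3 passed, all as lower in Met fl/fl, a share of 42.9% beside 41.4% of all genes. Hepatocyte markers summed to 4528 to 5617 units in Met fl/fl and 2817 to 3628 units in Egfr fl/fl, and the list was split. Of its 10 genes Alb, Cyp3a11, Cyp2e1, Cps1 and Tat were detected on no array. The transport protein gene Ttr, with 2790 to 5136 units in Met fl/fl and 2280 to 2366 units in Egfr fl/fl, and the transcription factor gene Hnf4a, with 1661 to 2419 units in Met fl/fl and 488 to 770 units in Egfr fl/fl, were detected on all 6 arrays. Hnf4a was higher in Met fl/fl (1.43 ± 0.12 SE, limma adjusted p = 1.39e-05), while Ttr, the largest part of the sum, did not pass (0.32, limma adjusted p = 0.139). Apoa1, detected on the 3 Met fl/fl arrays only, was higher there. Serpina1a, detected on the 3 Egfr fl/fl arrays only, was lower in Met fl/fl. Each entered the test only through the group where it was brighter, so its p-value is not given as support. The cells labelled as progenitors thus held epithelial, biliary and some hepatocyte transcripts, without detected Alb, which encodes albumin.

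Endothelial markers were near the limit of detection, with a summed level of 108 to 131 units in Met fl/fl and 76 to 104 units in Egfr fl/fl. Of these 10 markers 6, among them Cdh5, Tie1 and Vwf, were detected on no array, and neither tested one passed, Kdr (0.21, limma adjusted p = 0.330) and Eng (0.35, limma adjusted p = 0.126). Stellate cell and fibroblast markers summed to 90 to 97 units in Met fl/fl and 409 to 841 units in Egfr fl/fl, mainly through Acta2, whose brightest probe read 5.11, 2.67 and -1.88 units in Met fl/fl, none detected, and 507, 601 and 366 units in Egfr fl/fl. The Acta2 probes disagreed in size, with a difference of -4.45 on the brightest and of -1.05, -1.11 and -0.51 on the others. The brightest probe entered the test only through Egfr fl/fl, so its difference is set against undetected Met fl/fl values. In this list Pdgfra, Col1a1, Col3a1, Lrat and Lum were detected on no array. Macrophage and leukocyte markers summed to 1216 to 1383 units in Met fl/fl and 416 to 571 units in Egfr fl/fl, mainly through Cd14, and 6 of 9, among them Ptprc and Adgre1, were detected on no array. The 2 tested genes of that list had opposite signs. Cd14 was higher in Met fl/fl (1.57 ± 0.15 SE, limma adjusted p = 4.12e-05). Csf1r was lower, with 1.79 to 12.8 units in Met fl/fl, none detected, and 17.0 to 56.9 units in Egfr fl/fl, all detected. It entered the test only through Egfr fl/fl, so its p-value is not given as support. None of the 6 sums overlapped between the genotypes. Among single tested genes 52.0% did not overlap either, but those had passed the detection filter. The sums also hold undetected probes, which keep a small positive value after normalization. Dim sums, such as the endothelial ones, are in part that floor. The part of these sums in the NOTCH differences was not tested.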

How the data were processed

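Signals were measured on 6 Illumina arrays, 3 of Met fl/fl and 3 of Egfr fl/fl, grouped by the sample titles. Per the labels' protocols, RNA came from a Qiagen kit and biotinylated cRNA from an Ambion kit. Per the submitters' processing notes, GenomeStudio 2011.1 was used. The array model was not stated there. The deposited intensity per probe is linear and background-subtracted, and each has a deposited detection p-value, whose steps correspond to 798 negative controls. The deposited normalized intensity matrix ranks probes as the signals do and served as an alternative.

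In limma 3.58.1 (R 4.3.3), normexp modelled the background from negative controls that the detection p-values imply, 16 units were added, and log2 values were quantile normalized between arrays. Probes detected (p under 0.05) on at least 3 arrays entered lmFit and eBayes (trended variance). The added 16 units understate changes of dim genes. The inferred SD of the controls was 13.58 to 15.35 units on Met fl/fl and 6.25 to 7.82 units on Egfr fl/fl arrays. A robust estimate gave 5.71 to 6.48 and 5.65 to 6.42 units and was an alternative. The number of arrays limits precision. The fit was tested on simulated data. Other alternatives changed the background model, scaling, offset, filter, variance model, array weights, replicate block and arrays used. The alternative with plain signals had no background model and raised values below 16 units to 16, in place of adding 16.

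Symbols are those of the file. For the pathway and marker lists older ones were updated through RefSeq synonyms. All member probes were named, as were the 10 called pathway genes of largest difference, those detected on no array, and for 3 members the 3 most similar genes. Members and lists were chosen with earlier results of these data known. Promoter sequences are RefSeq's. The values of 1 tested pathway gene, which is in the counts, are not reported here.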

Additional observations from a re-analysis of the deposited data

How the results depend on the processing

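In 17 other settings, 6 of which left out 1 array, Notch1 (0.85 to 1.12) and Jag1 (-1.40 to -0.84) passed each time, as did Notch2 (1.70 to 3.01) and Hey1 (1.07 to 2.46) in the 16 that tested them. Requiring a detection p under 0.01 on all arrays dropped Notch2 and Hey1 by construction, leaving 1 member higher in Met fl/fl. Hes1 (0.27 to 0.67, limma adjusted p 0.00165 to 0.365) passed in 4, and Jag2 turned to 0.10 with array weights and to 0.08 without Egfr fl/fl replicate 3, passing in none of 16 (-0.69 to 0.08 with 1 array left out). Other pathway genes higher in Egfr fl/fl, 5 as reported, numbered 3 with plain signals and with no filter, 8 with cyclic loess and 9 with array weights, which also gave 19 higher in Met fl/fl and 6993 of 11578 probes called, against 4613 as reported. Leaving out 1 array gave 3 to 8 of them higher in Egfr fl/fl, with 3 without Met fl/fl replicate 2, Met fl/fl replicate 3 or Egfr fl/fl replicate 1 and 8 without Egfr fl/fl replicate 3. The cause of these changes was not tested. The replicate block gave 8 such genes and raised Hes1 past the threshold (limma adjusted p = 0.0313). Same-numbered samples had correlated deviations of 0.24, -0.15 and 0.32, so the numbers are not taken as pairs. Signal close to the negative controls limits what can be said of Hey1, Jag2, Lfng, Notch3, Dll1, Rbpj and the Egfr fl/fl level of Notch2.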
